A study of Homo sapiens with 8 samples.

Results

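The zinc finger genes of human chromosome 19 were taken as the protein-coding genes on that chromosome whose symbol is ZNF followed by a number. There were 240 of them among 1480 protein-coding genes of chromosome 19 and 20136 protein-coding genes of chromosomes 1 to 22, X and Y (GENCODE annotation mapped to GRCh37). Each gene was taken as its annotated body plus 2000 bp upstream. Their histone marks were read in PC9, a line of human lung adenocarcinoma cells that had received DMSO or the EZH2 inhibitor GSK126 (1 μM) for 5 days. EZH2 is the enzyme of Polycomb repressive complex 2 that places H3K27me3, a mark of Polycomb-repressed genes, whereas H3K4me3 marks the starts of active or poised genes. There were 8 libraries, 2 for each mark and treatment, and 14 lists of islands, which are stretches enriched in tags as called by SICER. The groups differed in antibody and treatment, and chromatin of Drosophila melanogaster had been added to each immunoprecipitation as a spike-in. No other cell line was analysed here.

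Most zinc finger genes of chromosome 19 encode KRAB zinc finger proteins. These bind DNA, often in transposable elements, through an array of C2H2 fingers, and recruit the corepressor TRIM28 (KAP1) through the KRAB box. The genes arose by tandem duplication and lie in clusters, and in many tissues they are expressed at low levels while the bodies and 3' ends carry H3K9me3.

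Of the 240 genes, 228 lay in 10 clusters of at least 5 genes with gaps under 500 kb. In the translated coding sequence of 1 transcript for each gene, a short pattern of the KRAB box was found in 200 of the 239 members that could be read in frame (83.7%), as against 86 of 234 ZNF-numbered genes of other chromosomes (36.8%). The median number of C2H2 fingers was 13 over the members and 9 over the ZNF-numbered genes elsewhere. The window of 300 bp around the transcript start, from 250 bp upstream to 50 bp downstream, held a median of 20 CG dinucleotides over the members and 23 over all protein-coding genes.

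Promoters that carried different marks in DMSO-treated cells are shown here, since the sequences let the marks be read beside the CG content. All were read from GRCh37 and are printed 5′ to 3′ on the strand of the gene, with each CG in capitals. ZNF69 (chr19:11998347-11998646, + strand, 8 CG) and ZNF44 (chr19:12405649-12405948, - strand, 17 CG) lay wholly in islands of both marks in both DMSO libraries when H3K27me3 was read from the spike-in lists. In the standard list of DMSO replicate 2, the ZNF44 window lay in no H3K27me3 island. ZNF439 (chr19:11959291-11959590, + strand, 12 CG) and ZNF667 (chr19:56988665-56988964, - strand, 42 CG) lay wholly in H3K27me3 islands and in no H3K4me3 island. ZNF787 (chr19:56632615-56632914, - strand, 32 CG) lay in H3K4me3 islands alone. ZNF382 (chr19:37095965-37096264, + strand, 27 CG) lay in no island of either mark, and had the most CG of the genes without either mark.
ZNF69: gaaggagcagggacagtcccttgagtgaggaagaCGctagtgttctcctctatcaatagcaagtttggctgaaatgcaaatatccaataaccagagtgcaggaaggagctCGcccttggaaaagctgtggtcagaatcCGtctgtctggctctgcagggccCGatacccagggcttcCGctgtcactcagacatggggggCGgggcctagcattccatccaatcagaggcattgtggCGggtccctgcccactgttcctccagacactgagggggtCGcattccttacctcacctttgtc
ZNF44: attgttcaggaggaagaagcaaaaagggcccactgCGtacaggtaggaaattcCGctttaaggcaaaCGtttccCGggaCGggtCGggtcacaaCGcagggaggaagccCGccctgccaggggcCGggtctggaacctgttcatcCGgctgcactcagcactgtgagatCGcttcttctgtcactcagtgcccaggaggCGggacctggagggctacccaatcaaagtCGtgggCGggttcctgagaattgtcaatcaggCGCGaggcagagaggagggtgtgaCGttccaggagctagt
ZNF439: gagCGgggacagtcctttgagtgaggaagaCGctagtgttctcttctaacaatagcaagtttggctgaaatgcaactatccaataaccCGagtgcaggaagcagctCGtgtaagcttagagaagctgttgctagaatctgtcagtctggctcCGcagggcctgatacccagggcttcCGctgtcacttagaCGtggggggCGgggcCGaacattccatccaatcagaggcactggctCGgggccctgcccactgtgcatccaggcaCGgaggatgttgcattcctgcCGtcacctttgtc
ZNF667: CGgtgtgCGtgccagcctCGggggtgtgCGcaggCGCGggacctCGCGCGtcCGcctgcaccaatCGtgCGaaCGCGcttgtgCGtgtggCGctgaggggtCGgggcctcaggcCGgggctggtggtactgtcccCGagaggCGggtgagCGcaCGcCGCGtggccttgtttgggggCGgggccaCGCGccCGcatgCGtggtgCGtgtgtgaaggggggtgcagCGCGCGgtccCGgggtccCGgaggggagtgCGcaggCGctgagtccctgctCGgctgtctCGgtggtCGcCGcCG
ZNF787: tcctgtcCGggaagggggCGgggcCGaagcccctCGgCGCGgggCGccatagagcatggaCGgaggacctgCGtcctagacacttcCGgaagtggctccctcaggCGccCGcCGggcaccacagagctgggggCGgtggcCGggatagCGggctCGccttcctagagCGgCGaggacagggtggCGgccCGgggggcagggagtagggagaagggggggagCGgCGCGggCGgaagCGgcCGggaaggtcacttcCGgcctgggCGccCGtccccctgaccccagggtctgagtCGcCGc
ZNF382: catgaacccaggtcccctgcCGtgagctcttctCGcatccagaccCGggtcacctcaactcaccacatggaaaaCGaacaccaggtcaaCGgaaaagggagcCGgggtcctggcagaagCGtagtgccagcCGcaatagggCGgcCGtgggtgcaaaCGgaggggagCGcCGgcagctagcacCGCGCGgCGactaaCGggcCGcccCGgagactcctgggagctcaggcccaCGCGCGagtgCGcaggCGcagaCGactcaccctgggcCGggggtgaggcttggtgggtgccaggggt
The promoters of the neighbours ZNF439 and ZNF69 were identical at 259 of 304 columns of a global alignment (85.2%), and yet H3K4me3 was found at ZNF69 and not at ZNF439. The promoter of ZNF382, with 27 CG, was without islands, and that of ZNF667, with 42 CG, carried H3K27me3 without H3K4me3.

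Each library was deposited as islands and not as tag counts, so the length covered by islands is the measure used here. In the standard lists, tags had been removed at random until both libraries of a replicate held the same number, and in the spike-in lists tags had been removed by the factor from the Drosophila tags. The mean number of tags in a window of 200 bp, as read from the island scores, was 1.66 and 2.33 in the DMSO H3K27me3 spike-in lists of replicates 1 and 2 and 0.382 and 0.455 in the GSK126 spike-in lists. It was 1.36 and 1.55 in the standard H3K27me3 lists of both treatments. For H3K4me3 it was 1.77 in replicate 1 and 0.302 in replicate 2, and 1.48 and 0.263 in the GSK126 spike-in lists. Island lengths of H3K4me3 were therefore compared within a replicate only. With 2 libraries in each group, the smallest p-value of an exact two-sided permutation test is 0.333, so single genes were not tested. Counts of genes are given beside the same count over all protein-coding genes. As a check of the cell line, 6 of 7 epithelial genes (such as KRT8 and CDH1) had an H3K4me3 island at the gene start in both DMSO libraries, and EPCAM had one in replicate 1. EGFR also carried H3K27me3 on its stretch. Among genes of blood, endothelium and fibroblasts, COL1A1 had one, whereas PTPRC, CD3E, CDH5 and PDGFRB did not have one in both libraries. H3K27me3 lay on CD3E, COL1A1 and PDGFRB and not on PTPRC or CDH5. CDH5 and PDGFRB had H3K4me3 elsewhere on their stretches in both DMSO libraries, and CD3E had it in replicate 1.

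The zinc finger genes of chromosome 19 carried H3K4me3 at the gene start more often than other genes and H3K27me3 less often. In DMSO, 197 of the 240 genes (82.1%) had an H3K4me3 island within 1000 bp of the start in both libraries, as against 58.9% of all protein-coding genes and 60.8% of the other genes of chromosome 19. An island was counted as present when it overlapped by at least 200 bp, and H3K27me3 in DMSO was read from the spike-in lists unless stated. An H3K27me3 island lay on 33 of 240 genes (13.8%) in both libraries, as against 27.4% of all genes and 37.4% of the other genes of chromosome 19. The ZNF-numbered genes of other chromosomes had shares of 84.7% and 16.9%, close to those of the members. Both marks lay at the start of 7 members (2.92%), as against 4.58% of all genes, and these were ZNF69, ZNF625, ZNF44, ZNF563, ZNF442, ZNF30 and ZNF471. With H3K27me3 from the standard lists, it lay on 24 members (10%), as against 25.1% of all genes. Both marks then lay at the start of 4 (1.67%, ZNF69, ZNF563, ZNF442 and ZNF30), as against 4.08%. The marks were read in separate libraries, so both marks on the same chromosome copy and marks in different cells cannot be told apart. These shares are descriptions of the 4 DMSO libraries and carry no test. Tags that map to several copies of zinc finger genes were not counted, and the part of this in the shares was not tested. Genes are not independent replicates, and members in 1 cluster share neighbourhood and sequence.

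**Figure D1:**
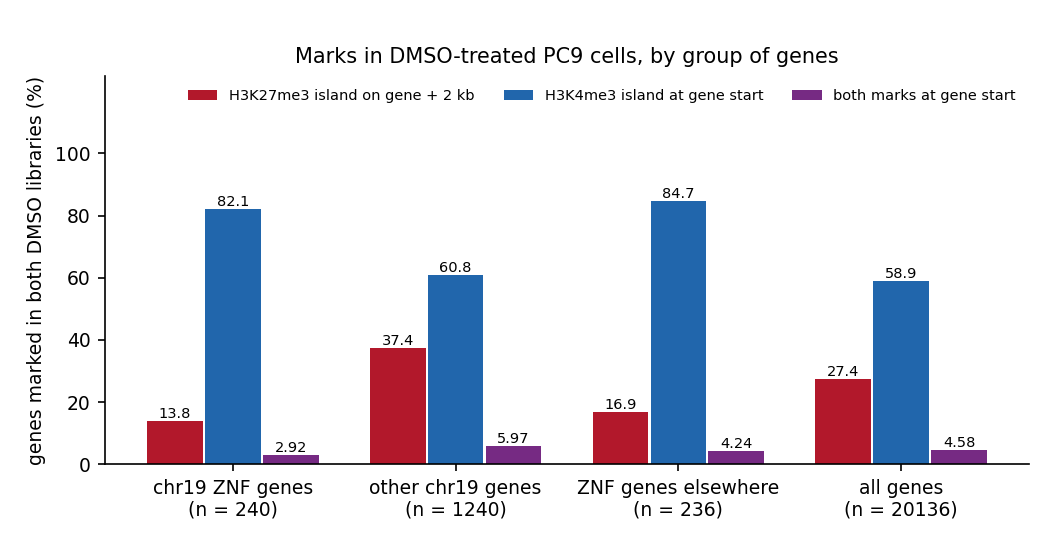
Share of genes (%) with an island in both DMSO libraries, for the 240 chromosome 19 ZNF genes, the other genes of chromosome 19, the ZNF-numbered genes elsewhere and all protein-coding genes, with bars for H3K27me3 on the gene plus 2 kb, H3K4me3 at the gene start and both marks at the gene start. H3K4me3 stood at 82.1% in the chromosome 19 ZNF genes and 58.9% in all genes, and H3K27me3 at 13.8% and 27.4%.

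Over the gene body and upstream stretch, 194 members (80.8%) had H3K4me3 alone in both DMSO libraries, 23 had both marks, 10 had H3K27me3 alone and 13 had neither. Of the 194, 7 had an H3K27me3 island in 1 of the DMSO libraries. These were ZNF491, with 9.8 kb or 70.2% of its stretch in replicate 1, and ZNF175, ZNF28, ZNF415, ZNF347, ZNF132 and ZNF256, the last with 74 and 474 bp. The 10 with H3K27me3 alone were ZNF439, ZNF763, ZNF536, ZNF541, ZNF577, ZNF534, ZNF578, ZNF667, ZNF835 and ZNF135. The 13 with neither were ZNF556, ZNF177, ZNF878, ZNF208, ZNF676, ZNF729, ZNF98, ZNF492, ZNF99, ZNF723, ZNF728, ZNF382 and ZNF154. ZNF556 and ZNF98 among them had an H3K27me3 island in 1 of the DMSO libraries. None of these 23 genes without H3K4me3 had an H3K4me3 island in either DMSO library. Median CG counts of the promoter window were 20 with H3K4me3 alone, 21 with both marks, 23 with H3K27me3 alone and 14 with neither. The KRAB pattern was found in 161 of 193, 21 of 23, 7 of 10 and 11 of 13 of these genes.

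The marks were spread unevenly over the clusters. The cluster from ZNF653 to ZNF791 (chr19:11594242-12752912, 25 members) held 11 of the 33 genes with H3K27me3, of which 9 carried both marks, and 5 of the 7 genes with both marks at the start. H3K27me3 covered 13.1% and 10% of the gene stretches of this cluster in DMSO replicates 1 and 2. Similar shares were found in the small cluster from ZNF302 to ZNF792 (13.6% and 10.9%, 2 of 5 members) and in that from ZNF628 to ZNF835 (10.5% and 10.7%). These were near the 9.58% and 10.4% of the stretches of all protein-coding genes. They were below the 20.8% and 21.5% of the other genes of chromosome 19. An H3K27me3 island lay on 27.4% of all genes (above). The cluster from ZNF101 to ZNF254 (chr19:19777605-24312770, 37 members) held 1 gene with H3K27me3, ZNF93, and 8 of the 13 genes with neither mark. There, H3K27me3 covered 0.569% and 0.777% of the gene stretches. Tags that map to several gene copies were not counted, and the part of this in the low cover was not tested. The cluster from ZNF414 to ZNF846 had no gene with H3K27me3 among 13 members. The largest cluster, from ZNF264 to ZNF446, had 4 among 41, the cluster from ZNF175 to ZNF331 had 3 among 39, and the cluster from ZNF628 to ZNF835 had 4 among 16.

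**Figure D2:**
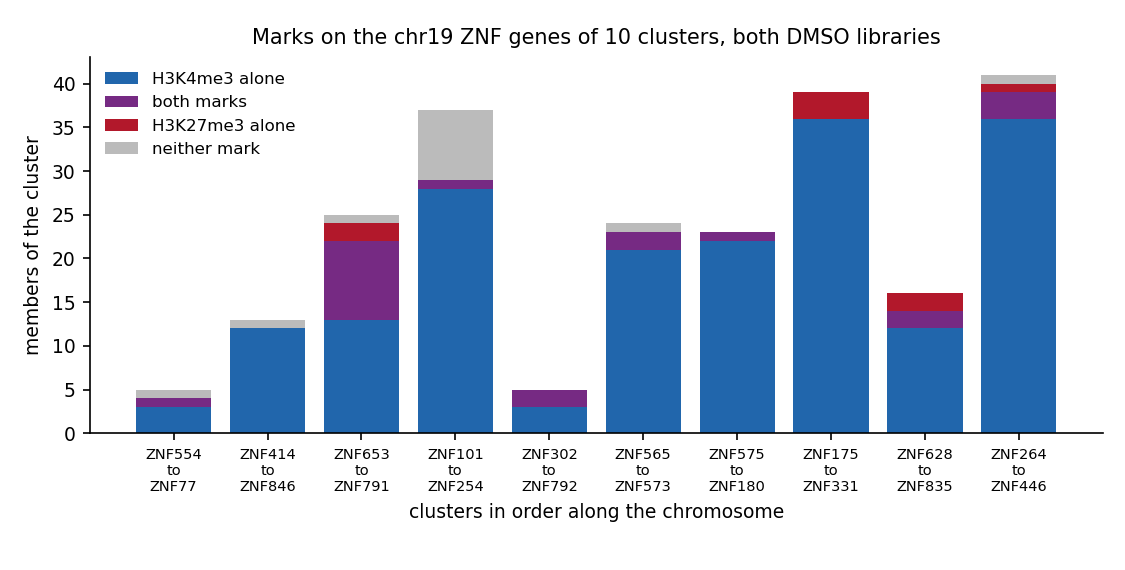
Number of members in each of the 10 clusters of chromosome 19 ZNF genes, in order along the chromosome, divided by the marks found in both DMSO libraries. The cluster from ZNF653 to ZNF791 shows 11 of 25 members with H3K27me3, and the cluster from ZNF101 to ZNF254 shows 8 of 37 members with neither mark.

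With GSK126, the zinc finger genes lost H3K27me3 in the spike-in lists. H3K27me3 covered 638 and 627 kb of the members' stretches in DMSO replicates 1 and 2 and 321 and 316 kb with GSK126, a mean log2 ratio of -0.99 ± 0.0049 (SD, n = 2, exact permutation p = 0.333, the smallest possible). Over all protein-coding genes, the mean log2 ratio was -1.06 ± 0.0194. The members thus kept 50.3% and 50.5%, near the 48.6% and 47.6% of all genes, while the ZNF-numbered genes of other chromosomes kept 65.8% and 68.6%. However, a single gene, ZNF536, held 61% and 65.6% of the covered length of the members in DMSO. Without ZNF536, the covered length fell from 249 and 216 kb to 64.6 and 39.5 kb, so that 26% and 18.3% was left, and the mean log2 ratio was -2.20 ± 0.356. ZNF536 was left out after its values were seen and no gene was left out of the other groups, so these values were not compared with theirs.

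With the standard normalization, the same comparison gave 638 and 551 kb in DMSO and 544 and 411 kb with GSK126, a mean log2 ratio of -0.33 ± 0.136 (SD, n = 2, exact permutation p = 0.333), and -0.31 ± 0.138 over all genes. When ZNF536 was left out, 70.3% was left in replicate 1 and 43.3% in replicate 2, a mean log2 ratio of -0.86 ± 0.495. The loss was thus seen in each replicate of both normalizations, but replicates differed more in the standard lists, with replicate 2 showing the larger loss.

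Gene by gene, all 33 members with an H3K27me3 island in both DMSO spike-in lists had at least 200 bp less with GSK126 in both replicates, as did 89.3% of the 5525 such genes overall. No member had more in both replicates, which was found for 0.109% of all genes, with or without H3K27me3 in DMSO. No H3K27me3 island was left in either replicate for 20 of the 33 (60.6%), whereas this held for 31.9% of all genes and for 19 of 40 ZNF-numbered genes of other chromosomes (47.5%). By the standard normalization, 18 of 24 members (75%) had less in both replicates, against 55.6% of all genes, and 7 of 24 (29.2%) had none left, against 9.16%. The genes counted for less or for none left were selected by their islands in DMSO. This selection favours a loss with GSK126, in the members and in all genes alike.

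Genes with a short covered length in DMSO were left without islands more often, and most members were of this kind. The median over the 33 genes was 5.39 and 4 kb in DMSO replicates 1 and 2, and for 17 of them the mean covered length was under 5 kb. Of these, 15 (88.2%) had none left in the spike-in lists, as against 60.8% of all genes of that length and 13 of 14 ZNF-numbered genes of other chromosomes (92.9%). Between 5 and 10 kb the counts were 4 of 9 members (44.4%), against 37.8%, and from 10 kb upwards 1 of 7 (14.3%), against 10.2%. The GSK126 spike-in lists had also been made from fewer tags than the DMSO lists (above), and the part of the tag number in these losses was not tested. The ranges of length were chosen after the values were seen.

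**Figure D3:**
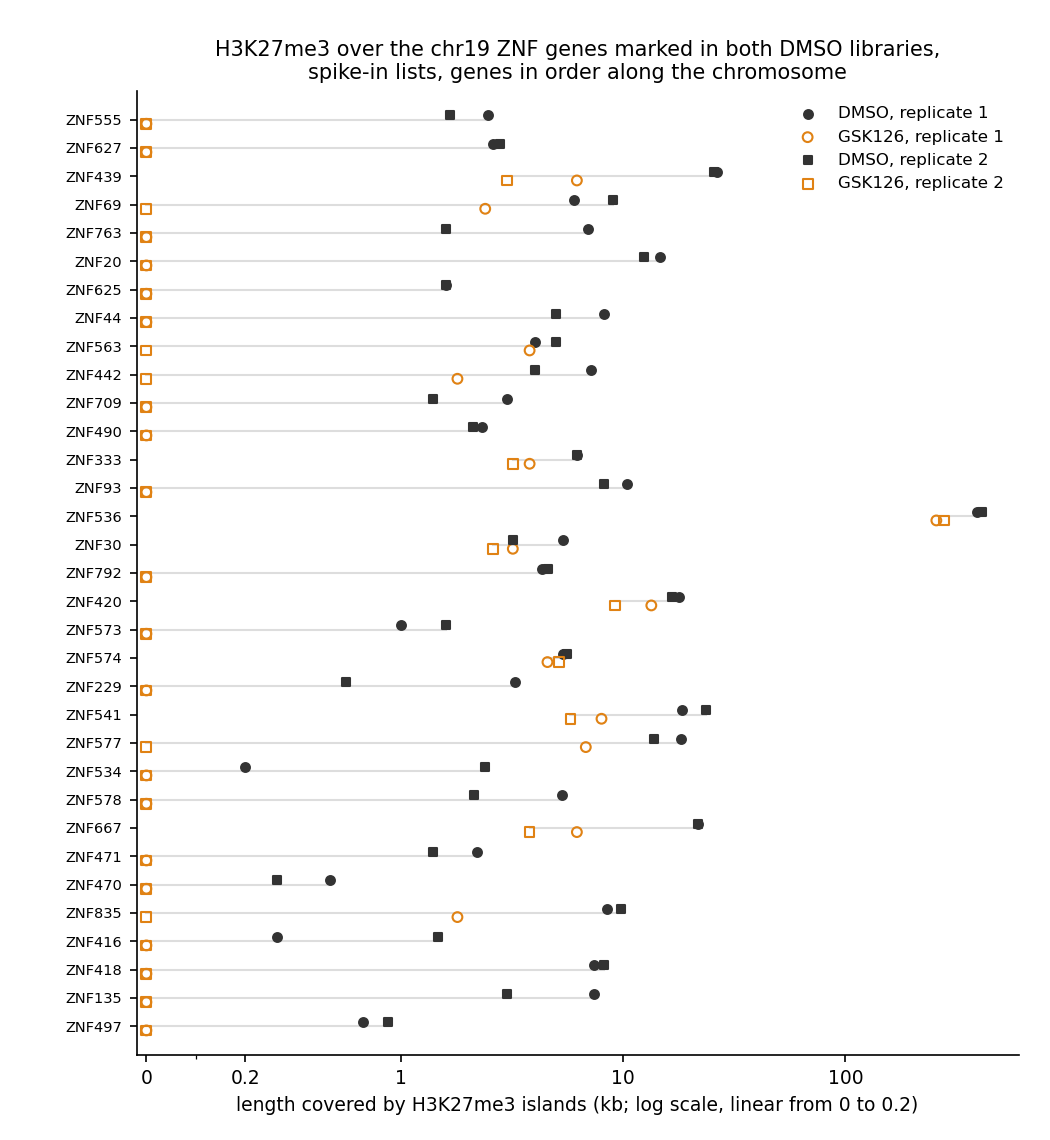
Length covered by H3K27me3 islands (kb, log scale, linear from 0 to 0.2 kb) over each of the 33 chromosome 19 ZNF genes with an island in both DMSO spike-in lists, with filled symbols for DMSO and open symbols for GSK126, circles for replicate 1 and squares for replicate 2. Both GSK126 symbols of 20 genes lie at 0, while ZNF536 stays at 256 and 277 kb.

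ZNF536 (chr19:30715798-31204493, + strand), a gene of the nervous system outside the KRAB clusters, was the most extensively covered. H3K27me3 islands covered 390 and 411 kb of it in the DMSO spike-in lists, 79.4% and 83.8% of its stretch, and 256 and 277 kb with GSK126. It therefore kept 65.8% and 67.4%, and in the standard lists 93.5% and 88.2%. Both GSK126 values lay below both DMSO values in either normalization. No H3K4me3 island lay on it in any list.

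The next longest covered lengths were those of ZNF439, ZNF667 and ZNF541, none of which had H3K4me3 in any list. On ZNF439 (chr19:11959541-11994565), H3K27me3 covered 26.4 and 25.6 kb in the DMSO spike-in lists and 6.2 and 3 kb with GSK126. On ZNF667 (chr19:56950694-56989434), it covered 21.6 and 21.8 kb and then 6.2 and 3.8 kb. On ZNF541 (chr19:48023947-48076405), a gene expressed in germ cells, it covered 18.5 and 23.7 kb and then 8 and 5.8 kb. In the spike-in lists, both GSK126 values lay below both DMSO values for the 3 genes, which was not counted over all genes. In the standard lists, ZNF667 had 22 and 20 kb in DMSO and 20.2 and 8.4 kb with GSK126, so its groups overlapped. ZNF541 had 18.1 and 19.7 kb in DMSO and 17.3 and 11.9 kb with GSK126 there. ZNF439 was not lower in both replicates of the standard lists, with 28.2 and 20.4 kb in DMSO and 29.2 and 8.8 kb with GSK126. At ZNF439 and ZNF667, the promoter windows printed above were wholly within H3K27me3 islands in both DMSO spike-in lists and in no island of the GSK126 spike-in lists, but remained covered in the standard lists with GSK126. On ZNF835 (chr19:57173348-57183151), 71.6% and 83.1% of the short stretch was covered, 8.45 and 9.8 kb in DMSO against 1.8 kb and no island with GSK126. On ZNF577 (chr19:52308069-52394203), 18.1 and 13.8 kb became 6.8 kb and none, and part of these islands also lay on the overlapping gene FPR3.

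Among the genes with both marks, ZNF20, ZNF93 and ZNF418 lost all their H3K27me3 islands in the spike-in lists. On ZNF20 (chr19:12203658-12251170), H3K27me3 covered 14.6 and 12.4 kb in DMSO and none with GSK126, and in the standard lists it covered 12.2 and 12.6 kb in DMSO against 8 and 2.6 kb. In the DMSO spike-in lists, islands of 4.6 and 5 kb lay on ZNF20 alone, and the others also lay on another overlapping gene. On ZNF93 (chr19:20011722-20074273), which encodes a repressor of LINE-1 elements, 10.4 and 8.2 kb in DMSO fell to none, and in the standard lists 8.2 and 7.6 kb also fell to none. On ZNF418 (chr19:58433250-58446770), 7.4 and 8.2 kb fell to none, but in the standard lists replicate 1 had 7.6 kb in DMSO and 8.6 kb with GSK126, and replicate 2 had 5.4 kb and none. ZNF93 was thus the one of these 3 genes with no island left in either normalization. ZNF420 (chr19:37498759-37621270) kept more, with 17.8 and 16.6 kb in DMSO and 13.4 and 9.2 kb with GSK126. The genes that kept the largest part of their H3K27me3, named after the values were seen, were ZNF574, with 5.37 and 5.57 kb in DMSO against 4.57 and 5.17 kb in the spike-in lists, and ZNF30, which is described with the gains. H3K4me3 on ZNF93 covered 3.6 and 1.8 kb with either treatment in the standard lists.

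More H3K27me3 with GSK126 in both replicates of the standard lists was found for 2 members (0.833%), against 1.64% of all genes. Both shares also count genes without H3K27me3 in DMSO, and fewer members carried it there (10%, against 25.1% of all genes). The 2 shares are therefore not a comparison of marked genes. On ZNF625 (chr19:12252905-12267549), there was no island in the DMSO standard lists and 1.4 and 2 kb with GSK126. In the spike-in lists the same gene had 1.6 and 1.6 kb in DMSO and none with GSK126, so that its direction depended on the normalization. On ZNF30 (chr19:35417807-35436074), the covered length was 5.39 and 2.59 kb in DMSO and 5.79 and 2.79 kb with GSK126 in the standard lists, and 5.39 and 3.19 kb against 3.19 and 2.59 kb in the spike-in lists. The standard gain on ZNF30 was 1 window in 1 replicate and 2 windows in the other.

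Of the members without any H3K27me3 island in DMSO, 198 in the spike-in lists, ZNF274 alone had one with GSK126. The same count was not made over all genes, so its size cannot be read as particular to the members. ZNF274 (chr19:58694396-58724928) encodes a zinc finger protein that recruits the H3K9 methyltransferase SETDB1 to the 3' ends of other zinc finger genes. It had an island in replicate 2, covering 6.73 kb in the spike-in list and 4.6 kb in the standard list, and none in replicate 1. ZNF829 (chr19:37379026-37407193) had no H3K27me3 island in any list, and its H3K4me3 covered 2.8 and 2 kb in DMSO and 2.8 and 2.2 kb with GSK126.

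Over all 240 members, 20 and 20 had an H3K27me3 island within 1000 bp of the gene start in the DMSO spike-in lists (8.33% in both), and 8 and 2 with GSK126 (3.33% and 0.833%). Over all genes the shares were 18.7% and 19.5% in DMSO and 10.2% and 10.3% with GSK126. The standard lists gave 16 and 14 members in DMSO and 11 and 7 with GSK126, and 17.8% and 17.7% against 15.4% and 13.8% of all genes. The covered length of the 33 genes with H3K27me3 lay mostly on ZNF536. Exons of 1 transcript for each gene made up 3.97% and 4.16% of the covered length in DMSO, and the 2 kb upstream made up 3.94% and 4.47%. The share of exons in the stretches themselves was not computed, so these values cannot be called high or low. Around the start, at most 83.3% and 80.8% of members lay in an H3K4me3 island in DMSO replicates 1 and 2, and 82.9% and 80% with GSK126 in the spike-in lists. The corresponding highest shares over all genes were 60.4% and 56.6%. For H3K27me3, the profile of all genes was highest 500 bp downstream of the start (16.7% and 17.5%), whereas that of the members was highest at 4900 bp upstream, near the edge of the range, with 11.7% and 9.17%.

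**Figure D4:**
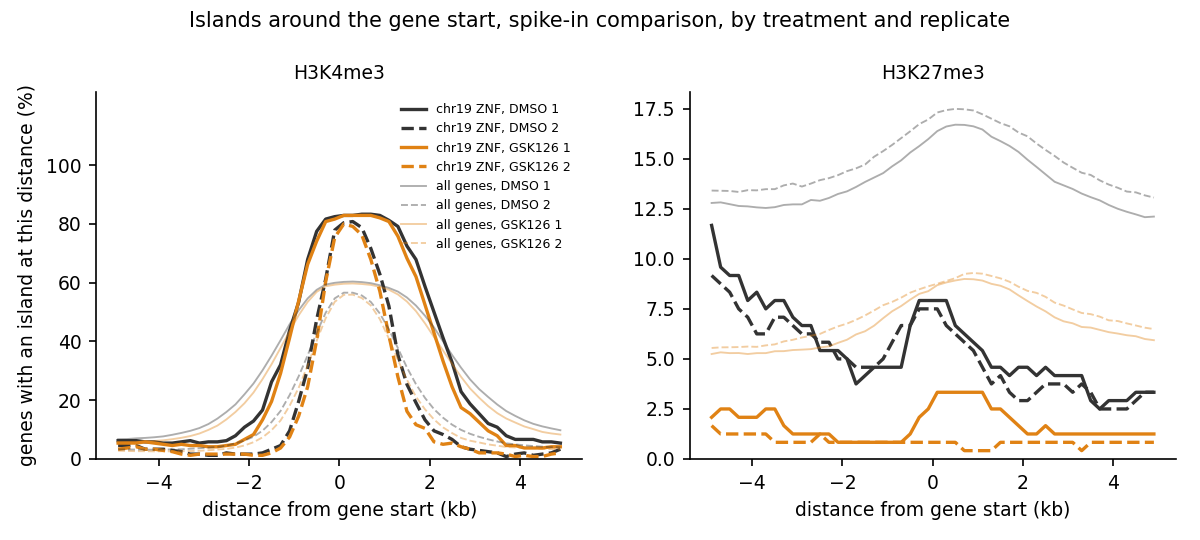
Share of genes (%) with an island at each distance from the gene start, within 5 kb on either side, for H3K4me3 and H3K27me3, with thick lines for the chromosome 19 ZNF genes and thin lines for all genes, dark or grey for DMSO and orange for GSK126 (spike-in comparison), solid for replicate 1 and dashed for replicate 2. H3K4me3 over the members reaches 83.3% and 80.8% in DMSO, and the H3K27me3 lines with GSK126 lie below those with DMSO.

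H3K4me3 changed less than H3K27me3 in the spike-in lists. It covered 826 and 449 kb of the members' stretches in DMSO replicates 1 and 2, and 764 and 400 kb with GSK126 in the spike-in lists, a mean log2 ratio of -0.14 ± 0.0371 (SD, n = 2, exact permutation p = 0.667). After standard normalization, 728 and 420 kb were covered with GSK126, a mean log2 ratio of -0.14 ± 0.0619 (exact permutation p = 0.667). This test does not use the pairing, and replicate 1 had nearly double the covered length of replicate 2 with either treatment. Within replicates 1 and 2, the log2 ratios were -0.11 and -0.17 in the spike-in lists and -0.18 and -0.09 in the standard lists. Over all protein-coding genes the mean log2 ratios were -0.18 and -0.17. The H3K27me3 log2 ratio minus the H3K4me3 log2 ratio over members was -0.85 in the spike-in lists and -0.19 in the standard lists, with exact permutation p = 0.333 over 6 splits in both, the smallest possible. In the standard lists it was -0.05 in replicate 1 and -0.33 in replicate 2, so that the marks hardly differed in replicate 1. Over all protein-coding genes, the differences in the spike-in and standard lists were -0.88 and -0.14, beside -0.85 and -0.19 over all members. Without ZNF536 the members gave -2.06 and -0.72. These 2 values were not compared with those of all genes, from which no gene was left out. The number of members with an H3K4me3 island was 217 in both DMSO lists, and 217 and 215 with GSK126 in the spike-in lists.

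Of the 217 members with H3K4me3 in both DMSO lists, 69 (31.8%) had less in both replicates in the spike-in lists, against 35.9% of all genes, and 70 (32.3%) in the standard lists, against 36.5%. More H3K4me3 in both replicates was found for 15 of 240 (6.25%) in the spike-in lists, against 5.31%, and for 9 (3.75%) in the standard lists, against 4.57%. Shares in either direction were thus near those of all genes. Differences were mostly a few windows. A loss of at least 1000 bp in both replicates was found for 5 members (2.3%) in the spike-in lists and 4 (1.84%) in the standard lists, against 7.54% and 6.95% of all genes. However, members had shorter H3K4me3 in DMSO, with medians of 3600 and 2000 bp where present, against 4560.5 and 2600 bp over all genes. The median part left in the spike-in lists was 95% and 90% for members and 94.6% and 90.9% for all genes. The lower share at 1000 bp therefore does not show a smaller relative loss. Both GSK126 libraries lay below both DMSO libraries for 0 members in the spike-in lists and 1 (ZNF587) in the standard lists, and for 1.62% and 1.93% of all genes. Replicate 2 had shorter H3K4me3 islands than replicate 1 with either treatment. Few genes could therefore meet this, whatever the treatment did, and no conclusion is drawn from it.

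The longest covered lengths of H3K4me3, summed over the islands of a gene, were those of ZNF787, ZNF581, ZNF846, ZNF580 and ZNF586. ZNF787 (chr19:56598732-56632664) also had the largest mean loss, from 14.2 and 7 kb in DMSO to 9.4 and 6.6 kb in the standard lists, most of it in replicate 1. ZNF581 and ZNF580 overlap each other, and part of their islands also lay on CCDC106. ZNF581 had 12.2 and 8.59 kb in DMSO and 11.8 and 8.79 kb with GSK126, which differ in opposite directions between replicates. ZNF580 did the same, with 10.2 and 6.44 kb in DMSO against 9.65 and 6.64 kb. ZNF846 had 12.2 and 6.4 kb in DMSO and 11 and 6.2 kb with GSK126, and ZNF586 had 10.3 and 6.11 kb and then 10.5 and 4.51 kb. The ZNF586 islands that lay on no other gene were of 3.2 and 2.6 kb in DMSO and 3.8 and 1.4 kb with GSK126. Its other islands also lay on ZNF552 or ZNF587B. Among genes with less in both replicates of the standard lists, the next largest losses were those of ZNF749, with 5.6 and 2.6 kb in DMSO against 2.6 and 2.2 kb, ZNF358, with 6.2 and 2.4 kb against 3.4 and 2.2 kb, ZNF792, with 5.6 and 4.2 kb against 4.6 and 2.2 kb, and ZNF329, with 7.8 and 3.4 kb against 5.6 and 2.8 kb. ZNF333, with 5.8 and 1.6 kb against 3.2 and 1.4 kb, had the same mean loss as ZNF329. Among genes with more in both replicates, the largest gains were on ZNF45, ZNF615, ZNF562, ZNF69 and ZNF211. On ZNF45, H3K4me3 covered 2.6 and 1.2 kb in DMSO and 3.8 and 1.4 kb with GSK126, and on ZNF615 it covered 3 and 1.6 kb and then 4 and 2 kb. ZNF562 went from 3 and 1.6 kb to 3.8 and 1.8 kb, and ZNF211 from 2.6 and 1.2 kb to 3.2 and 1.4 kb. In none of these genes did the treated libraries separate from both DMSO libraries, but the shorter islands of replicate 2 left little room for that.

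**Figure D5:**
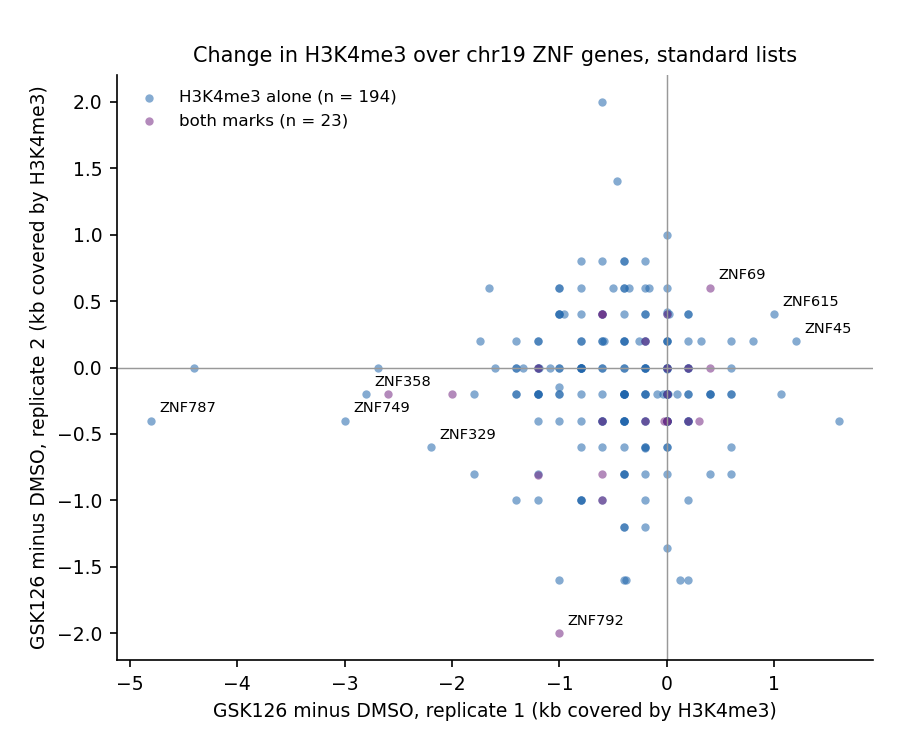
GSK126 minus DMSO in the length covered by H3K4me3 islands (kb, standard lists) for the 217 members with H3K4me3 in both DMSO libraries, replicate 1 on the horizontal and replicate 2 on the vertical axis, each point a gene, coloured by whether it also carried H3K27me3. Losses in both replicates lie at the lower left, and ZNF787 lies farthest to the left.

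No new H3K4me3 island appeared with GSK126 on members that lacked one in DMSO. None of the 10 members with H3K27me3 alone and none of the 13 with neither mark had an H3K4me3 island in any GSK126 list of either normalization. The same count was not made over all genes, so it cannot be read as particular to the members. Among the 23 with both marks, 9 (39.1%) had less H3K4me3 in both replicates of the spike-in lists and 2 (8.7%) had more. Among the 194 with H3K4me3 alone, 60 (30.9%) had less and 13 (6.7%) had more. Less was found for 35.9% of all genes with H3K4me3 in both DMSO lists. In the standard lists, 8 of the 23 (34.8%) and 62 of the 194 (32%) had less, against 36.5% of all genes. There, 1 of the 23 (4.35%) and 8 of the 194 (4.12%) had more. The 2 genes with both marks whose H3K4me3 was longer in the spike-in lists were ZNF69 and ZNF229. On ZNF69, H3K27me3 covered 6 and 9 kb in the DMSO spike-in lists and 2.4 kb and none with GSK126, while H3K4me3 covered 2.2 and 1 kb in DMSO and 3.2 and 1.6 kb with GSK126.

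In the spike-in lists, the 9 clusters with H3K27me3 in DMSO all had less of it with GSK126 in both replicates. In the cluster from ZNF653 to ZNF791, H3K27me3 covered 92.7 and 70.5 kb in the DMSO spike-in lists and 14.2 and 3 kb with GSK126, and in the standard lists 71.1 and 54.3 kb against 51.4 and 16.2 kb. In the cluster from ZNF628 to ZNF835, 32.8 and 33.3 kb became 8 and 3.8 kb in the spike-in lists. In the cluster from ZNF175 to ZNF331, 27.8 and 19.7 kb became 8.6 kb and none. In the cluster from ZNF565 to ZNF573, which holds ZNF420, 18.8 and 18.2 kb became 13.4 and 9.2 kb. The last cluster, from ZNF264 to ZNF446, had 18.4 and 14 kb in DMSO, none with GSK126 in replicate 1 and 6.73 kb in replicate 2, all of it on ZNF274. The standard lists did not show a loss in both replicates for every cluster. The cluster from ZNF554 to ZNF77 had 4.91 kb in DMSO and 5.11 kb with GSK126 in replicate 1, and none in replicate 2. The cluster from ZNF302 to ZNF792 had 10.7 and 2.59 kb in DMSO and 5.93 and 2.79 kb with GSK126.

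The corepressor TRIM28 and 16 other genes of the silencing of zinc finger targets were read in the same way (SETDB1, ATF7IP, CBX1, CBX3, CBX5, SUV39H1, SUV39H2, TASOR, MPHOSPH8, PPHLN1, MORC2, SMARCAD1, ATRX, DAXX, UHRF1 and DNMT1). An H3K4me3 island lay at the start of 16 of the 17 in both DMSO libraries, and UHRF1 had islands elsewhere on its stretch. H3K4me3 was shorter in both replicates for 6 of the 17 in either normalization, near the 35.9% and 36.5% of all genes, and longer for none in the spike-in lists and 1 in the standard lists. On TRIM28, which lies on chromosome 19, H3K4me3 covered 5600 and 3400 bp in DMSO and 5800 and 3000 bp with GSK126 in the standard lists. DNMT1 had 11000 and 5800 bp in DMSO against 8400 and 5400 bp. H3K27me3 was found on 1 of the 17, PPHLN1, with 2800 and 3200 bp in the DMSO spike-in lists and none with GSK126. The standard lists of PPHLN1 gave 5200 and 3200 bp with DMSO but 7400 bp and none with GSK126, so that the replicates differed in direction.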

How the data were processed

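ChIP-seq for H3K27me3 and H3K4me3 was carried out in PC9 cells treated with DMSO or GSK126, with 2 libraries for each mark and treatment. Per the methods of the study, single-end tags of 50 nt were mapped with BWA to hg19 (GRCh37) and duplicates and multiply mapped tags dropped. The authors then removed tags at random for the standard or spike-in normalization, and called islands in each library with SICER 1.1 (window 200 bp, gap 600 bp for H3K27me3 and 200 bp for H3K4me3, E-value 1). Tags that map to several copies of zinc finger genes were therefore not counted. The deposited score of an island served as a filter and gave the tag density, and was not compared between lists. No tag counts were used.

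Island coverage was computed for each gene, with Python 3.11.15, NumPy 2.4.6 and SciPy 1.17.1, and plots were drawn with Matplotlib 3.10.9. Each H3K4me3 DMSO library had 1 list, which served both normalizations. Ratios and differences were formed within a replicate. Replicate pairs come from the library table of the study and the equal tag densities of the standard lists. The study calls them biological replicates. The sample labels carry no replicate numbers. A gene was counted as lower or higher when it differed by at least 200 bp the same way in both replicates. The scripts for coverage and counts were tested on simulated data.

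Genes named were the 10 members longest in H3K27me3 and the 5 longest in H3K4me3, up to 5 with the largest loss and gain of each mark in the standard lists, members at least 50% covered by H3K27me3, and ZNF274 and ZNF829, which the study names. Genes listed because a class or count is small, ZNF44, ZNF69, ZNF229 and ZNF382 among them, were named after their values were seen. The members and lists were chosen with earlier results of these data known. Sequences were read from GRCh37, and transcripts from the GENCODE release 44 annotation mapped to it. The promoter sequence of 1 further gene and the values of 1 marker gene are not reported here. PECAM1 was not matched. Alternatives are given in the closing section.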

Additional observations from a re-analysis of the deposited data

Results flagged for a closer look

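At 2 genes with both marks, H3K27me3 became shorter and H3K4me3 longer in both replicates. On ZNF69, H3K27me3 changed by a mean of -6300 bp and H3K4me3 by 800 bp in the spike-in lists, and by -6100 bp and 500 bp in the standard lists. On ZNF229, H3K27me3 changed by -1924 bp and H3K4me3 by 400 bp in the spike-in lists. In the standard lists, H3K4me3 on ZNF229 did not move the same way in both replicates. The difference between the marks was not tested at either gene. In the spike-in lists, these are 2 of 23 genes with both marks (8.7%), against 13 of 194 (6.7%) with H3K4me3 alone. Longer H3K4me3 was found for 5.31% of all genes, but that share also counts genes without H3K4me3 in DMSO. All 33 members with H3K27me3 had less of it in the spike-in lists, so any of them with longer H3K4me3 had to meet this description.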

How the results depend on the processing

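Over 15 results for the members, 120 alternative values were computed, of which 97 kept their direction and, for counts, stayed within 1.5 times. No ratio changed sign. Without ZNF536, an alternative added after the data were seen like the reading of the DMSO state from the standard lists, the H3K27me3 log2 ratios were -2.20 and -0.86, and the differences between the marks -2.06 and -0.72, for the spike-in and standard lists. With islands of at least 2 times the lowest score, 19 members had H3K27me3 in both DMSO libraries and all 19 had less with GSK126, 1 member had both marks at the start, and 1 had more H3K27me3 in the standard lists. That last count was also 1 with longer islands, with members that overlap no other member, with no replicate block and with a difference of at least 1000 bp. With islands of any score but H3K27me3 read from the standard lists, 4 members had both marks at the start. The counts of H3K4me3 rested on pairing and on small differences. With no replicate block, 0 members in the spike-in lists and 1 in the standard lists had less H3K4me3, and 0 had more. The shorter H3K4me3 islands of replicate 2 meant that few genes could meet that setting in either direction. With a difference of at least 1000 bp, 5 and 4 had less and 0 had more. Leaving out a replicate gave 122 to 130 (spike-in) and 113 to 142 (standard) members with less H3K4me3, 34 to 63 with more H3K4me3, 22 to 28 with less and 3 to 7 with more H3K27me3 in the standard lists, since 1 replicate then sufficed for a call. The difference between the marks in the standard lists was -0.33 without replicate 1 and -0.05 without replicate 2. The lists give islands alone, so weak marks under the calling threshold could not be seen, most of all in H3K4me3 replicate 2 and the GSK126 spike-in lists.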
